A study of Homo sapiens with 6 samples.

Results

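The subunits of the oxidative phosphorylation complexes were examined in SiHa PR cells with and without P4HA3 overexpression. They were taken as every deposited gene whose identifier maps to a protein-coding symbol of the families NDUFA, NDUFB, NDUFC, NDUFS and NDUFV, UQCR, COX4 to COX8 and ATP5, or to a protein gene of mitochondrial DNA (mtDNA). This gave 96 of the 60664 genes in the table, of which 83 lie on nuclear chromosomes and 13 on mtDNA. The rule leaves out subunits with other symbols, such as CYC1 of complex III and NDUFAB1 of complex I. SiHa is an established human cervical carcinoma line, and SiHa PR is its parental form, in contrast to the lymph node metastatic form that the study also used. The 3 control libraries carry no label beyond SiHa PR, and the other 3 come from SiHa PR cells that overexpress P4HA3, a prolyl 4-hydroxylase subunit. The study's methods describe a P4HA3 cDNA in a pCDH lentiviral vector, and no source used here says whether the cells are 1 clone or a pool, or that replicates were separate cultures. The p-values therefore measure the spread between these libraries, which may be technical.

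Oxidative phosphorylation takes place in the inner mitochondrial membrane. Complexes I, III and IV pass electrons from NADH and ubiquinol to oxygen and pump protons, and complex V, the ATP synthase, uses the proton gradient to make ATP. Complexes I, III, IV and V are mosaics of proteins from both genomes: mtDNA encodes the hydrophobic cores, and nuclear genes encode the remaining subunits, which are made in the cytosol and imported. The mtDNA is transcribed into long precursors from each strand that are cut into single mRNAs, so its genes share promoters. Nuclear subunit genes are transcribed one by one, and factors such as NRF1 and GABP bind many of their promoters.

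Each library held between 21773488 and 24939948 counts, and the smallest and largest factors of the trimmed-mean normalization (TMM) were 0.979 and 1.018. P4HA3 was at 3.53, 2.91 and 3.80 CPM (counts scaled to a common library size by TMM, here and below) in the control libraries 1, 2 and 3 and at 1930, 1990 and 1940 CPM in the overexpressing libraries 1, 2 and 3, as the labels require. Since the growth protocol among the labels names smooth muscle, marker genes were checked. Of 6 smooth muscle markers, DES, MYH11, CNN1 and LMOD1 had at most 0.368 CPM in any library, ACTG2 lay between 0 and 1.73 CPM, and SMTN lay between 85.2 and 101 CPM. Of 8 epithelial and cervical carcinoma markers, KRT7, KRT8, KRT18 and CDKN2A were abundant (a mean of at least 344 CPM in each group), CDH1 and EPCAM were at 5.48 to 16.5 CPM in the group means, and KRT19 and KRT5 were at most 1.22 CPM in any library. Of these 8, CDH1 (-0.77), KRT18 (-0.40) and CDKN2A (-0.27) were called lower with P4HA3 overexpression, and any part of this in the values below was not tested. The libraries within each group differed beyond counting error (chi-square over its degrees of freedom from 5.15 to 17.6).

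Neighbouring mtDNA genes share bases, and 2 such junctions are shown because they limit how single subunits can be counted. The end of MT-ATP8 and the start of MT-ATP6, both subunits of the ATP synthase, overlap by 46 bases (chrM:8527-8572 of GRCh38, plus strand). MT-ND4L and MT-ND4, both of complex I, overlap by 7 bases (chrM:10760-10766, plus strand). In the lines below, capitals mark the bases that belong to both genes.
MT-ATP8/MT-ATP6 (chrM:8517-8582): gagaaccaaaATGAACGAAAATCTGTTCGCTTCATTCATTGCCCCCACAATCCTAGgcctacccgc
MT-ND4L/MT-ND4 (chrM:10750-10776): acctactccaATGCTAAaactaatcgt
The shared bases are 22.2% of MT-ATP8. How the authors' counting treated reads that match 2 genes is not stated, so levels of MT-ATP8 are uncertain. Averaged over the libraries and per kilobase of transcript, MT-ATP8 was at 77.4 CPM and MT-ATP6 at 1110 CPM.

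The mtDNA-encoded subunits spanned a wide range of levels. Per kilobase of transcript, the catalytic core of complex IV was highest, with 3460 CPM for MT-CO1, 3340 CPM for MT-CO2 and 3230 CPM for MT-CO3. The complex I subunits followed between 345 CPM (MT-ND5) and 1140 CPM (MT-ND4), apart from MT-ND6, and MT-CYB, the cytochrome b of complex III, was at 891 CPM. MT-ND6, the one subunit gene on the minus strand of mtDNA, was lowest at 15.1 CPM. On the same scale the most abundant nuclear-encoded subunits were ATP5F1B, the catalytic beta subunit of the ATP synthase, at 1070 CPM and COX4I1, the largest nuclear-encoded subunit of complex IV, at 1050 CPM. These orders are descriptions, since poly-A selection and length affect genes differently. The mitochondrial ribosomal RNA genes were almost absent from the counts, with at most 1.11 CPM for MT-RNR2 in any library and between 0 and 2 counts for MT-RNR1.

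With P4HA3 overexpression, 0 of the 13 mtDNA-encoded subunits passed an adjusted p of 0.05 in edgeR's quasi-likelihood test, in either direction. Of all 15130 genes tested, 9.36% were called higher and 11.4% lower. At an unadjusted p under 0.05, 2 of the 13 were lower and 0 higher, DESeq2 called 2 lower, MT-ND3 and MT-CO3, and limma-voom called 0. With the replicate number as a block, edgeR called MT-CO1, MT-CO2, MT-CO3, MT-CYB, MT-ND1, MT-ND3 and MT-ATP6 lower, although the libraries are not labelled as pairs. The log2 fold changes (P4HA3 overexpression over control) were negative for 12 of the 13, with a median of -0.207 against 0.006 for all tested genes, and ran from -0.31 for MT-CO3 to 0.03 for MT-ND6. In 0 of the 13 did the groups separate without overlap, while 19.7% of all tested genes had every overexpressing library above every control library and 20.4% every one below.

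**Figure D1:**
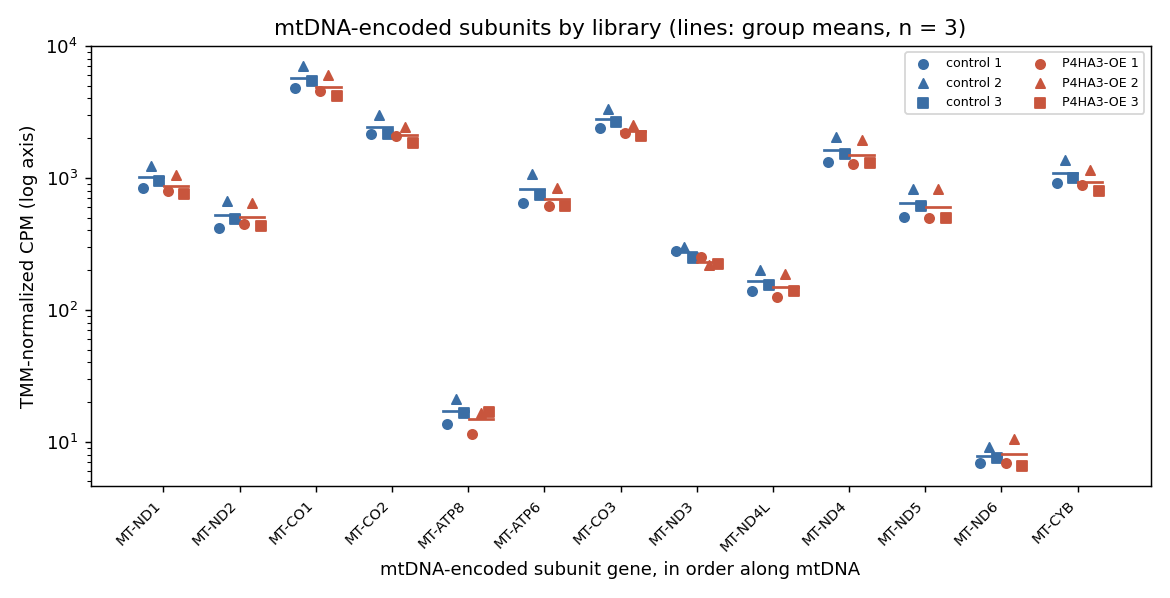
TMM-normalized CPM (log axis) of the 13 mtDNA-encoded subunit genes, in their order along mtDNA, in the 3 control (blue) and 3 P4HA3-overexpressing (red) libraries, with shapes for replicates 1, 2 and 3 and lines for group means. Control replicate 2 (blue triangle) is highest for 12 of 13 genes, and the groups overlap for all 13.

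Values by library show how the groups overlapped. MT-CO1 was at 4790, 7060 and 5420 CPM in control cells (replicates 1, 2 and 3, the order used for all values by library) and at 4560, 6010 and 4160 CPM with P4HA3 overexpression. Replicate 2 was the highest library of both groups, and the log2 fold change of -0.23 had a standard error of 0.158 (adjusted p = 0.303, edgeR). MT-CO3 was at 2400, 3350 and 2670 CPM in control cells and at 2200, 2530 and 2060 CPM with overexpression, which gave -0.31 (standard error 0.12, adjusted p = 0.0864, edgeR). Only replicate 2 of the overexpressing libraries reached into the control range. MT-CO2 was at 2160, 3020 and 2160 CPM and at 2090, 2430 and 1830 CPM, a log2 fold change of -0.21.

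MT-ND3, a small membrane subunit of complex I, differed from the others in its order of libraries. It was at 278, 301 and 245 CPM in control cells and at 251, 219 and 221 CPM with overexpression, and replicate 2 was here the lowest of the overexpressing libraries. Its log2 fold change of -0.25 (standard error 0.0824) had an adjusted p of 0.0523 (edgeR). The other complex I subunits of mtDNA were closer to 0, with -0.22 for MT-ND1, -0.14 for MT-ND4L, -0.11 for MT-ND4, -0.10 for MT-ND5 and -0.05 for MT-ND2. MT-ND6 was at 6.90, 9.20 and 7.48 CPM in control cells and at 6.96, 10.5 and 6.58 CPM with overexpression, so the groups covered nearly the same range.

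For complex III, MT-CYB was at 919, 1370 and 995 CPM in control cells and at 884, 1140 and 795 CPM with overexpression, a log2 fold change of -0.22 (95% interval -0.529 to 0.085). For the ATP synthase, MT-ATP6 was at 646, 1070 and 746 CPM and at 617, 838 and 613 CPM, a log2 fold change of -0.25 (95% interval -0.593 to 0.089). MT-ATP8 was at 13.7, 21.2 and 16.5 CPM and at 11.4, 16.6 and 16.7 CPM, and its groups overlapped as well. The intervals of these genes reached from a clear fall to a small rise, and the spread between libraries of a group was as large as the difference between groups.

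That spread was shared by the mtDNA genes. The 13 genes together took 1.43%, 2.07% and 1.62% of the counts in control cells and 1.35%, 1.81% and 1.3% with P4HA3 overexpression. The nuclear-encoded subunits took 1.19%, 1.15% and 1.15% and then 1.17%, 1.01% and 1.08%. The ratio of mtDNA-encoded to nuclear-encoded counts was 1.2, 1.8 and 1.41 in control cells and 1.15, 1.79 and 1.21 with overexpression, so replicate 2 stood at the top of each group and the groups overlapped. The median deviation of the mtDNA genes from their mean over the 6 libraries was -0.149, 0.419 and -0.006 on the log2 scale in control cells and -0.203, 0.185 and -0.271 with overexpression. The SD of these medians within groups, pooled over both groups, was 0.272. It describes single libraries, whereas the median log2 fold change of -0.207 compares group means. Fewer cells of a kind and less RNA per cell cannot be told apart in bulk libraries, and the amount of mtDNA per cell was not measured.

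**Figure D2:**
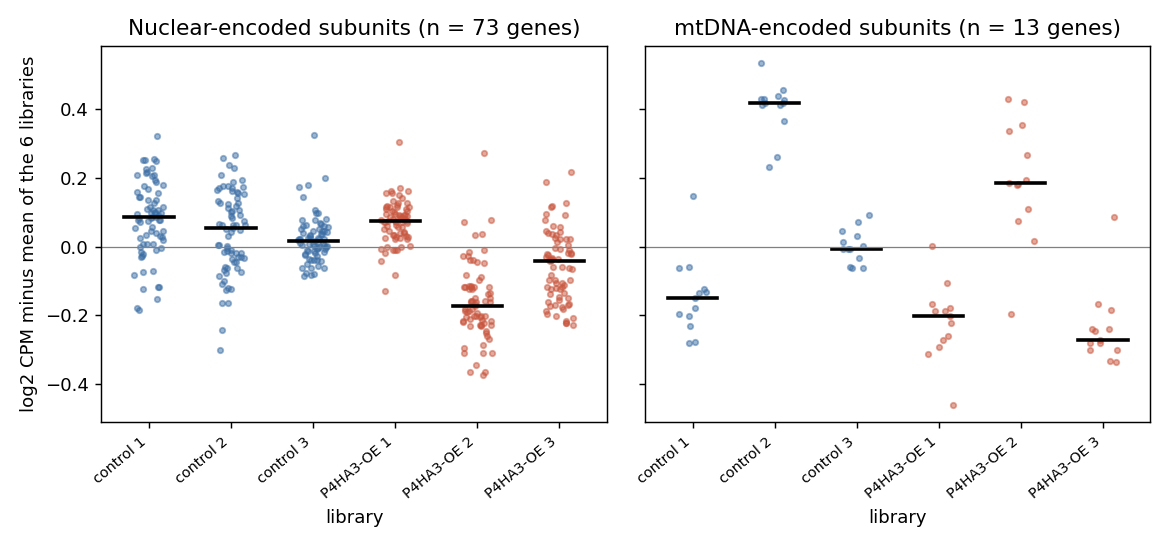
Deviation of log2 CPM from the mean of the 6 libraries for each of the 73 tested nuclear-encoded (left) and 13 mtDNA-encoded subunit genes (right), by library, with a bar at the median. The nuclear-encoded medians run from -0.173 (P4HA3 overexpression replicate 2) to 0.086 (control replicate 1), the mtDNA-encoded medians from -0.271 (P4HA3 overexpression replicate 3) to 0.419 (control replicate 2).

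The nuclear-encoded subunits moved differently across libraries. Their median deviation was 0.086, 0.054 and 0.016 in control cells and 0.075, -0.173 and -0.042 with overexpression. P4HA3 overexpression replicate 2 was the lowest library for 57 of the 73 tested genes, although the same library had the second highest median of the mtDNA genes. P4HA3 overexpression replicate 1 lay within the control range. The cytosolic ribosomal proteins, another set of short, abundant mRNAs, had medians of 0.096, 0.061 and -0.022 in control cells and 0.103, -0.175 and -0.061 with overexpression. In both sets P4HA3 overexpression replicates 2 and 3 were the lowest libraries.

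Of the 83 nuclear-encoded subunits, 73 passed the filter on low counts and were tested. With P4HA3 overexpression 9 were called lower (12.3%, against 11.4% of all genes tested), 1 was called higher (1.37%, against 9.36%) and 63 were not called. At an unadjusted p under 0.05, 17 were lower and 4 higher. The median log2 fold change was -0.100, with 57 negative and 16 positive values between -0.351 and 0.377. Every overexpressing library lay below every control library in 7 of the 73 (9.59%, against 20.4% of all genes) and above in 5 (6.85%, against 19.7%). The share called lower was thus near that of all genes and the largest change called, that of NDUFA5, was 0.377 on the log2 scale.

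In complex I, the NADH dehydrogenase, 5 of 34 tested nuclear-encoded subunits fell (14.7%, against 11.4% of all genes) and 1 rose (2.94%, against 9.36%), with a median of -0.107. NDUFV1, which binds NADH and the flavin where electrons enter, was at 229, 215 and 193 CPM in control cells and at 192, 162 and 169 CPM with overexpression. All 3 overexpressing libraries were below the controls, by a narrow margin, and the difference on the log2 scale was -0.28 (standard error 0.0801, edgeR adjusted p = 0.0327). NDUFS7, which carries an iron-sulfur cluster near the ubiquinone site, was at 115, 109 and 97.5 CPM and at 98.5, 79.4 and 85.8 CPM, and fell by 0.289 on the log2 scale (adjusted p = 0.0419, edgeR). Its groups touched at control replicate 3 and P4HA3 overexpression replicate 1. Genes on the opposite strand overlap 51.3% of its transcript, and the strand setting of the counting is not stated.

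The other complex I calls were accessory subunits. NDUFB11, in the membrane arm, was at 210, 214 and 182 CPM in control cells and at 186, 138 and 156 CPM with overexpression, a log2 fold change of -0.33 (adjusted p = 0.0446, edgeR). NDUFA2 was at 93.0, 90.3 and 84.5 CPM and at 83.2, 62.0 and 71.1 CPM, with -0.31 (adjusted p = 0.0445, edgeR). NDUFA3 was at 36.8, 37.5 and 34.6 CPM and at 31.8, 28 and 29.1 CPM, with -0.29 (adjusted p = 0.0238, edgeR). In NDUFA2 and NDUFA3 the groups did not overlap, and in NDUFB11 they did. NDUFA5, an accessory subunit of the peripheral arm, was the one nuclear-encoded subunit that rose, from 28.8, 26.6 and 30.9 CPM to 34.6, 39.6 and 38.1 CPM, 0.38 on the log2 scale (standard error 0.0822, edgeR adjusted p = 0.0137).

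The core subunits NDUFS1, NDUFS3 and NDUFS8 of complex I were not called. NDUFS1, the largest iron-sulfur subunit, was at 0.12 on the log2 scale (adjusted p = 0.139, edgeR), NDUFS3 at -0.20 and NDUFS8 at -0.22 (adjusted p = 0.0723 and 0.14, edgeR). NDUFV2, the partner of NDUFV1, had between 2 and 5 counts per library and could not be tested. Another gene on the same strand overlaps 90% of its transcript. Its pseudogene held 451 counts over the 6 libraries and the gene itself 23, so its level is uncertain.

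In complex III, which passes electrons from ubiquinol to cytochrome c, 0 of 9 tested nuclear-encoded subunits were called in edgeR's test, in either direction, with 2 lower and 1 higher at an unadjusted p under 0.05. DESeq2 called 2 lower, UQCRQ among them, and limma-voom called 0. The median was -0.059. UQCRFS1, the Rieske iron-sulfur protein, was at -0.01 (95% interval -0.125 to 0.095), and UQCRQ, a small subunit beside cytochrome b, was at -0.27 (adjusted p = 0.0798, edgeR).

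In complex IV, cytochrome c oxidase, 2 of 12 tested nuclear-encoded subunits fell (16.7%, against 11.4% of all genes) and the median was -0.124. COX5B, a zinc-binding subunit on the matrix side, was at 225, 205 and 183 CPM in control cells and at 187, 140 and 154 CPM with overexpression, which is the lowest log2 fold change of the nuclear-encoded subunits (-0.35, standard error 0.106, adjusted p = 0.0414, edgeR). P4HA3 overexpression replicate 1 overlapped control replicate 3. COX7A2 was at 160, 149 and 144 CPM and at 140, 110 and 123 CPM, with no overlap and a difference of -0.28 on the log2 scale (standard error 0.0829, edgeR adjusted p = 0.0375). COX4I1 was at -0.18 (adjusted p = 0.135, edgeR). NDUFA4, once counted with complex I and now placed in complex IV, was at -0.075.

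In the ATP synthase, 2 of 18 tested nuclear-encoded subunits fell (11.1%, against 11.4% of all genes), with a median of -0.082. ATP5F1D, the delta subunit of the central stalk, was at 129, 134 and 115 CPM in control cells and at 105, 93.8 and 98.1 CPM with overexpression. The groups did not overlap, and the log2 fold change of -0.35, with a standard error of 0.0709, had an edgeR adjusted p of 0.0109, the smallest adjusted p of the subunits. ATP5MC1, which encodes the c subunit of the proton-driven ring, was at 103, 114 and 99.2 CPM and at 96.4, 85.4 and 86.2 CPM, with -0.24 (adjusted p = 0.0412, edgeR). The catalytic core was not called. ATP5F1A was at 0.03 (95% interval -0.092 to 0.161) and ATP5F1B at -0.10 (95% interval -0.256 to 0.056). ATP5IF1, the inhibitor that binds the stalled enzyme, was at -0.03 (95% interval -0.157 to 0.092).

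The fold changes followed the base composition of the transcripts. Across the 73 nuclear-encoded subunits, Spearman's rho between the log2 fold change and GC content was -0.55, and it was -0.58 across all 15107 tested genes with a GC content and length (genes share libraries and are not independent). Subunit transcripts are short, with a median of 744 bases against 2936 for all tested genes, and their GC content runs from 34.6% for NDUFA5, the gene that rose, to 69.5% for ATP5F1D. Of the 14 nuclear-encoded subunits over 55% GC, 6 were called lower, with a median of -0.239. Among all genes over 55% GC, 26.8% were called lower and the median was -0.188. Of the 25 subunits under 45% GC, 0 were called lower in edgeR's test, by DESeq2 or by limma-voom (2 in edgeR's test at an unadjusted p under 0.05), and the median was -0.052, whereas all genes under 45% GC had a median of 0.189 and 1.57% of them were called lower. The median of the GC-rich subunits was thus somewhat below that of all genes over 55% GC. The median of the GC-poor subunits lay further below that of genes of like composition. The mtDNA-encoded subunits, at 39.6% to 47.7% GC, lay lower than the GC-poor nuclear-encoded subunits, at -0.207.

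The libraries themselves differed in this trend, within groups as well as between them. Correlated with GC content across all genes, the deviation of a library from the mean of all 6 had a Spearman's rho of 0.52, 0.591 and 0.133 in control cells and -0.047, -0.597 and -0.448 with P4HA3 overexpression. The part of these library trends in the fold changes of the subunits cannot be told apart from a difference between the groups, because the trends also differed between the groups. A second fit therefore removed each library's smooth trend on GC content and transcript length. It called 10.6% of all genes higher and 7.94% lower.

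**Figure D3:**
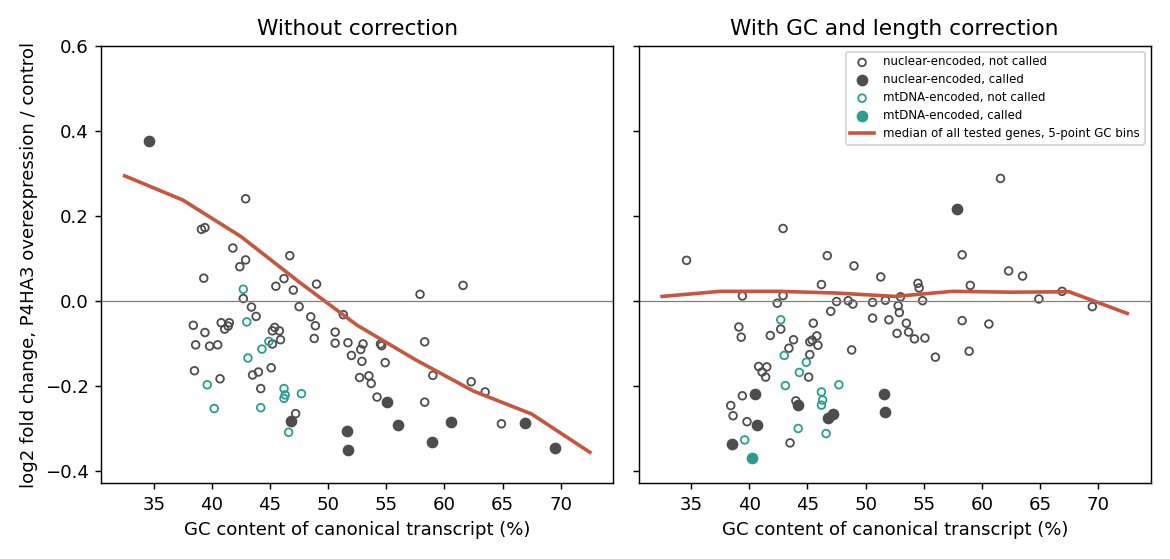
Log2 fold change (P4HA3 overexpression over control) against transcript GC content in percent for the nuclear-encoded (grey) and mtDNA-encoded (green) subunits, without (left) and with (right) the GC and length correction, with filled points for an adjusted p under 0.05 and a red line for the median of all tested genes in GC bins. On the left the subunits fall with GC along with all genes (rho -0.55), and on the right the red line is flat and the GC-poor subunits lie below it (rho 0.49).

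With the correction, 8 nuclear-encoded subunits were called lower (11%), 1 was called higher (1.37%), and their median was -0.062 against 0.019 for all genes. Most calls were of other subunits. Of the 9 lower calls before and the 8 after, 3 were shared (33.3% and 37.5%), namely NDUFA2, COX5B and COX7A2. The calls of NDUFA3, NDUFB11, NDUFS7, NDUFV1, ATP5F1D and ATP5MC1 were lost, and all 6 have over 55% GC. ATP5F1D moved from -0.35 to -0.01 and NDUFS7 from -0.29 to 0.02. NDUFA5 moved from 0.38 to 0.10 and was no longer called (adjusted p = 0.431, edgeR, and 0.000288 to 0.734 over all alternatives).

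The subunits called lower after the correction alone were GC-poor or near the middle. They were NDUFB1 (-0.25), UQCRQ (-0.27), COX6C (-0.22), COX7C (-0.29) and ATP5MC3 (-0.34), with adjusted p-values between 0.0127 and 0.0437 (edgeR), and between 8.84e-05 and 0.593 over all alternatives. COX6C, COX7C, COX7A2 and COX5B made 4 of 12 tested complex IV subunits lower (33.3%, against 7.94% of all genes). The complex IV median was -0.2. Of the 34 complex I subunits, 2 were called lower with the correction (5.88%), and their median was -0.05. COX8A was called higher with the correction (0.22, adjusted p = 0.0441, edgeR, and 0.00899 to 0.982 over all alternatives), while it stood at 0.01 without it. Another gene on the same strand overlaps 35.4% of the COX8A transcript. Of the mtDNA-encoded subunits, 13 of 13 were negative and MT-ND3 was called lower (-0.37, standard error 0.0903, adjusted p = 0.0163, edgeR, and 0.000813 to 0.344 over all alternatives). Under the correction the rho with GC content turned to 0.49 for the nuclear-encoded subunits. Subunits over 55% GC had a median of 0.013 and those under 45% a median of -0.156. The correction removes any part of a group difference that follows GC content or length, technical or not.

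**Figure D4:**
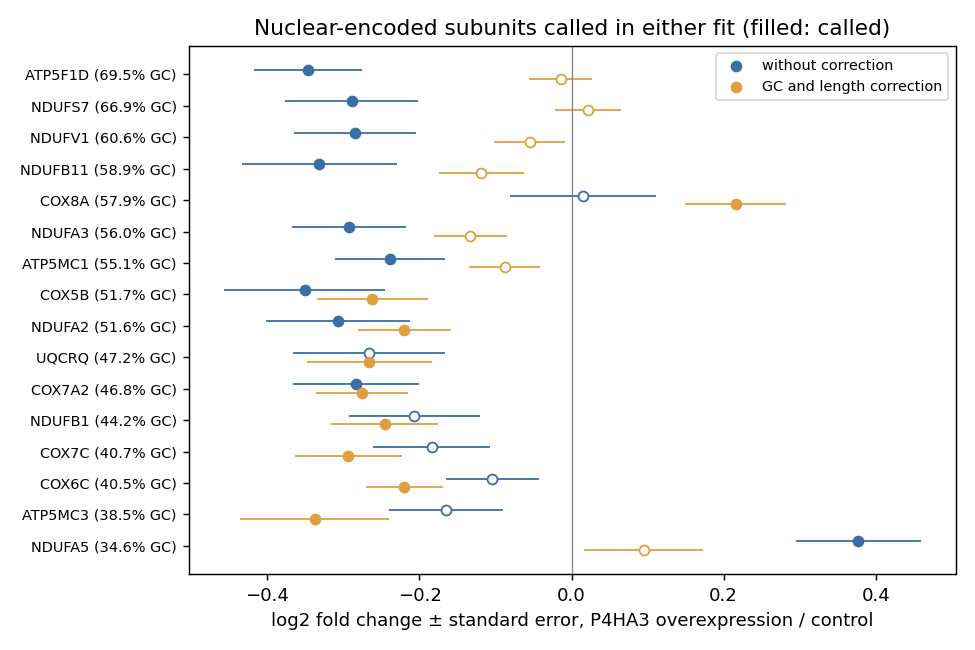
Log2 fold change with its standard error for the 16 nuclear-encoded subunits called in either fit, ordered by GC content, without (blue) and with (orange) the GC and length correction, with filled points for an adjusted p under 0.05. COX5B, NDUFA2 and COX7A2 are filled in both, the subunits over 55% GC lose their calls or, for COX8A, gain one, and NDUFA5 at 34.6% GC moves towards 0.

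The c subunit of the ATP synthase shows this within one protein. ATP5MC1, ATP5MC2 and ATP5MC3 differ in their import signals, and the last 77 residues they encode are identical. The bases that encode this common end are shown because they carry the same protein in different base composition. The last 75 coding bases of each gene, stop codon included, are printed here, read from the GENCODE transcripts of GRCh38, and capitals mark positions at which the 3 genes are not all the same.
ATP5MC1: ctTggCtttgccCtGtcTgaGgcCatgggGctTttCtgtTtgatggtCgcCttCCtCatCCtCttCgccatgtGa
ATP5MC2: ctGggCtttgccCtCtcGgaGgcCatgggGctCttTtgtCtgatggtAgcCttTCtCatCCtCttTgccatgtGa
ATP5MC3: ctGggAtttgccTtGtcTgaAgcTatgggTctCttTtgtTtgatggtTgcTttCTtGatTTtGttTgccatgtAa
Over the 234 bases of this end, ATP5MC1 and ATP5MC2 are 88.5% identical and ATP5MC3 is 79.9% identical to each of them. The GC content of the end is 55.1%, 54.7% and 45.3%, and that of the whole transcripts is 55.1%, 54.9% and 38.5%. Over the whole coding sequences it is 54.3%, 55.2% and 48.7%, and the transcripts are 646, 632 and 2587 bases long. The correction used the GC content and length of whole transcripts, so a part of the coding bases in its effect was not tested.

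Without the correction the 3 genes were at -0.24, -0.15 and -0.16, of which ATP5MC1 was called. ATP5MC2 was at 202, 201 and 180 CPM in control cells and at 195, 160 and 171 CPM with overexpression, and ATP5MC3 at 326, 348 and 331 CPM and at 335, 276 and 285 CPM. With the correction they were at -0.09, 0.00 and -0.34, and the call passed from the GC-rich ATP5MC1 to the GC-poor ATP5MC3 (adjusted p = 0.035, edgeR, and 0.000159 to 0.593 over all alternatives). Which of the 3 genes was called thus depended on the correction.

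Forms known from muscle, testis or lung were near or at 0 counts. COX4I2, the alternative to COX4I1 that responds to low oxygen in lung, had 0 counts in every library, and so had COX7B2. Each count of 0 allows up to 3 counts per library. COX6A2 and COX7A1, the heart and skeletal muscle forms, had at most 8 and 3 counts in any library, and COX6B2 and COX8C, known from testis, at most 8 and 1. Among the expressed forms were COX6A1 at -0.14, COX6B1 at -0.18, COX7B at -0.06, and COX7A2L, which joins complexes III and IV, at -0.10, and all had an adjusted p of at least 0.123 (edgeR). UQCRH was at -0.07 and its intronless copy UQCRHL at -0.06, and reads of the pair are hard to tell apart.

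For 12 of the 83 nuclear-encoded subunits, another gene on the same strand overlapped at least 20% of the canonical transcript in the annotation. The 8 of them that were tested had mean levels between 1.14 and 33.2 CPM, with a median of 9.9 CPM, against 6.78 to 1880 CPM and a median of 117 CPM for the other 65. NDUFA13 was at 1.14 CPM, NDUFB8 at 1.66 CPM and NDUFA11 at 3.54 CPM per library on average, although complex I holds each of these subunits. Pseudogenes of COX6A1 held 33.7% of the counts of the gene and its pseudogenes together, those of MT-ATP6 25.6% and those of MT-ND2 13.3%. Levels of these genes are uncertain. The lower calls of both fits came from the subunits with little overlap on the same strand, 9 without and 8 with the correction. These are 65 of the 73 tested, so this says little about an effect of overlap. Among subunits called lower, genes on the opposite strand overlap 51.3% of the NDUFS7 transcript and 27.4% of that of NDUFA2. The strand setting of the counting is not stated.

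**Figure D5:**
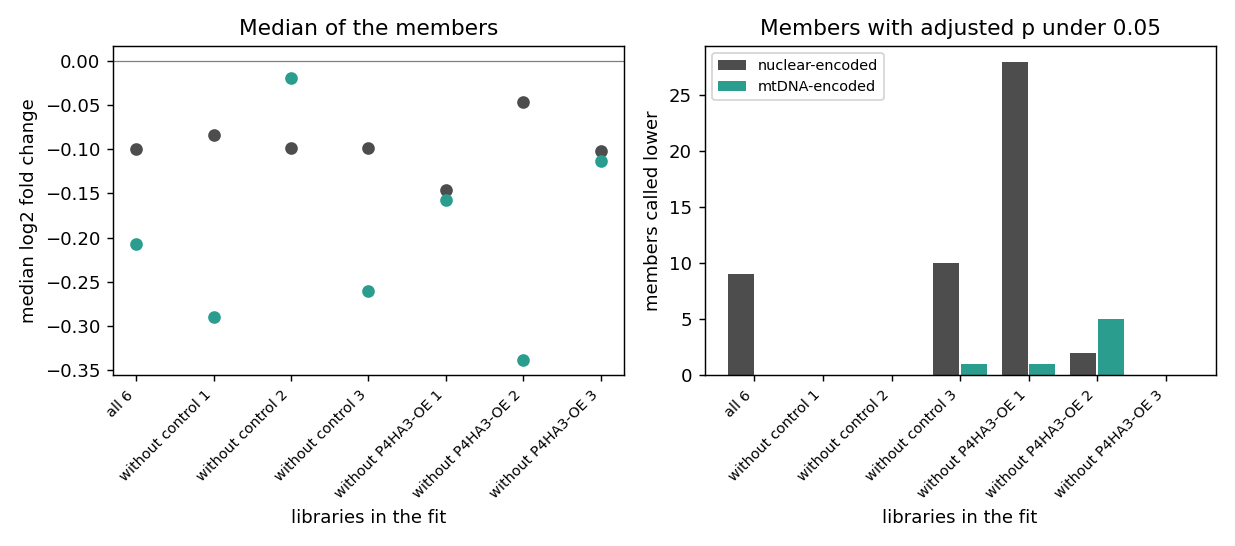
Median log2 fold change (left) and number of subunits with an adjusted p under 0.05 called lower (right) with all 6 libraries and without each in turn, for nuclear-encoded (grey) and mtDNA-encoded (green) subunits, without the GC and length correction. The nuclear-encoded calls run from 0 to 28, and the mtDNA-encoded median runs from -0.339 without P4HA3 overexpression replicate 2 to -0.019 without control replicate 2.

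The number of calls rested on single libraries. Leaving out control replicate 1, control replicate 2 or replicate 3 of the overexpressing cells left 0 nuclear-encoded subunits called lower. The number was 2 when replicate 2 of the overexpressing cells was left out, 10 for control replicate 3 and 28 for replicate 1 of the overexpressing cells. Where 0 were called by edgeR, 9, 11 and 9 were lower at an unadjusted p under 0.05. Of all tested genes, 781, 534, 904, 2206, 3185 and 5530 were called in the same fits. The median of the nuclear-encoded subunits stayed negative, between -0.146 and -0.047. The mtDNA-encoded median also stayed negative, but it was -0.019 in the absence of control replicate 2, and leaving out P4HA3 overexpression replicate 2 gave -0.339 with 5 subunits called lower (MT-CYB, MT-CO1, MT-ND1, MT-ATP6 and MT-CO3). COX5B, NDUFA2 and COX7A2, the subunits called with and without the GC and length correction, were each called in 2 of these 6 fits, and their log2 fold changes stayed between -0.48 and -0.21. The GC correction alone called 3 nuclear-encoded subunits lower, and 1 of them was among those called without correction. Not all of COX5B, NDUFA2 and COX7A2 therefore kept their calls there. With replicate 2 of both groups left out, an alternative chosen after seeing the data, the mtDNA-encoded median was -0.161 and the nuclear-encoded median -0.04, with 0 subunits called in edgeR's test (7 nuclear-encoded and 4 mtDNA-encoded lower and 4 nuclear-encoded higher at an unadjusted p under 0.05).

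Promoter sequences were compared because NRF1 and GABP bind many of these genes. RefSeq promoters (GRCh38.p14) were found for 66 of the 83 nuclear-encoded subunits. In the 250 bases before the start, on either strand, the letters GCATGCGC (NRF1) stood in 15.2% of them against 2.63% of all 35116 promoters, CCGGAAGT (ETS factors such as GABP) in 13.6% against 3.42%, and AAGATGGC (YY1) in 1.52% against 1.36%. No word contains another. The 35116 promoters were not limited to 1 per gene or to expressed genes, whereas each subunit entered once. At least 1 of them stood in 27.3% of the subunit promoters and in 7.03% of all. Of the 8 subunits called lower that have a promoter in the table, 2 held any of them. The promoter of COX5B held both of the first 2 words and that of COX8A, which had the opposite call with the correction, the ETS word on the other strand. Of the other called subunits, NDUFS7 held the NRF1 word and UQCRQ the ETS word. Only promoters whose start is also that of the gene in the annotation are printed. For COX5B and COX8A the 150 bases before the start follow, with the words in capitals.
COX5B (chr2:97645912-97646061, plus strand): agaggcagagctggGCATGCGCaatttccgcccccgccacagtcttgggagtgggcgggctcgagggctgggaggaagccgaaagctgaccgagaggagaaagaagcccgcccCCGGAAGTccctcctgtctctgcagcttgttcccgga
COX8A (chr11:63974470-63974619, plus strand): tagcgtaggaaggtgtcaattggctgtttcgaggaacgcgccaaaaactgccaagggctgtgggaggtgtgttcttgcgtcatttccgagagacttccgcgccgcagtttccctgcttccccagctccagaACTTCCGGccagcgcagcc
A word is a match of letters and not a measured binding site.

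Genes that act on the same complexes were read from lists of functions. Of 57 tested assembly factors, edgeR's test called 0 higher (9 at an unadjusted p under 0.05) and 2 lower, SURF1 (-0.37), which builds complex IV, and SDHAF1 (-0.32), which builds complex II, and the median was -0.018. Another list of 15 genes held complex II subunits, electron carriers, related genes and subunits that the symbol rule leaves out. In it CYCS, the mobile cytochrome c, rose (0.18) and SQOR, which passes electrons from sulfide to ubiquinone, fell (-0.36), with a median of 0.008. CYC1 of complex III (-0.16) and NDUFAB1 of complex I (-0.13) are in this list and were not called. In both lists the shares called in each direction lay below those of all genes. With the correction SURF1 and SQOR were still called lower, and SDHAF1 (-0.05) and CYCS (0.02) were not called. The assembly factor NDUFAF8, at 0.01 and not called without the correction, was called higher with it (0.26, adjusted p = 0.0382, edgeR).

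Of 32 genes of mtDNA expression and maintenance, 24 had a positive log2 fold change and the median was 0.117. In this list 1 gene rose (3.12%, against 9.36% of all genes) and 2 fell (6.25%, against 11.4%). FASTKD2, which binds mitochondrial ribosomal RNA, rose (0.32), and POLRMT, the mitochondrial RNA polymerase, and TBRG4, an RNA-binding protein of mitochondria, fell (-0.30 and -0.27). POLRMT was at 106, 101 and 95 CPM in control cells and at 88.2, 75.8 and 81.6 CPM with overexpression, with no overlap. With the correction FASTKD2, POLRMT and TBRG4 were at 0.11, -0.04 and -0.08, all not called, and the median of the list was 0.043. FASTK, at -0.10 and not called without the correction, was called higher with it (0.16, adjusted p = 0.0366, edgeR). TFAM, which packages mtDNA and starts its transcription, was at 0.18 (adjusted p = 0.117, edgeR). Among 13 tested regulators of the PGC-1 and NRF network, 2 rose and 2 fell (15.4% each, against 9.36% and 11.4% of all genes). GABPB1 (0.39) and GABPB2 (0.30), partners of the DNA-binding GABPA, rose, and ESRRA (-0.42), a nuclear receptor that drives oxidative genes, and MYC (-0.21) fell. ESRRA and MYC were still called lower with the correction (-0.16 and -0.21), and GABPB1 and GABPB2 were no longer called. TFEB, at 0.22 and not called without the correction, was called higher with it (0.49, adjusted p = 0.000527, edgeR). NRF1 itself was at 0.03 and PPARGC1A at 0.00, with about 2 CPM.

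The mitochondrial ribosome translates the 13 mtDNA-encoded subunits. Of its 77 tested proteins 9 rose (11.7%, against 9.36% of all genes) and 3 fell (3.9%, against 11.4%), with a median of -0.054. With the correction 12 rose (15.6%, against 10.6%) and 3 fell (3.9%, against 7.94%). MRPL1 (0.44) and MRPL50 (0.34) rose and MRPL14 (-0.46) fell most, and with the correction MRPL14 was still called (-0.31) and MRPL1 (0.25) and MRPL50 (0.10) were not. Of 84 tested cytosolic ribosomal proteins 1 rose (1.19%, against 9.36%) and 2 fell (2.38%, against 11.4%). Their median of -0.092 was close to the -0.100 of the nuclear-encoded subunits.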

How the data were processed

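RNA of 6 SiHa PR libraries (3 control, 3 P4HA3 overexpression) was analysed from the raw counts per gene that the authors deposited. Per the labels and the study's methods, poly-A RNA was used for stranded (dUTP) libraries, which were read from both ends on a DNBSEQ-T7, aligned to GRCh38 and counted with HTSeq. The submitters' processing notes name HISAT2 and the methods name STAR. The methods give an Ensembl release as the annotation, and tool versions and the strand setting are not given in the sources used here. The deposited growth protocol names a smooth muscle tissue, and the cell line label was used.

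Gene identifiers (60463 of 60664) were matched to GENCODE 44 for symbols, GC content and length of the canonical transcript. The counts were filtered by filterByExpr (minimum count 10), scaled by TMM and compared by the two-sided quasi-likelihood test of edgeR 4.0.16 (R 4.3.3), and p-values of the 15130 tested genes were adjusted by the Benjamini-Hochberg method. Standard errors are the log2 fold change over the root of F. For the correction, each library's smooth trend on GC content and log2 length (mgcv 1.9.3) was entered as an offset, and genes without these values kept no trend term. The fit was tested on simulated data. The alternatives were DESeq2 1.42.0, limma-voom (limma 3.58.1), other normalizations and filters, a replicate block, each library left out, an adjusted p under 0.01 and, chosen after seeing the data, replicate 2 of both groups left out.

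The members and lists were chosen with earlier results of these data known. Named were all mtDNA-encoded subunits, up to 6 called nuclear-encoded subunits each way in each fit, core subunits, paralogue families and up to 3 called genes per list. Other genes, such as COX6C, NDUFA4, NDUFA13, MYC, TFAM, NRF1 and PPARGC1A, were named after their values were seen. Values of 1 core subunit are not reported here. Counting error alone limits a gene of 1 CPM, which rests on about 20 counts.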

Additional observations from a re-analysis of the deposited data

How the results depend on the processing

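The medians of both classes kept their sign in every alternative run, between -0.104 and -0.062 (nuclear-encoded) and between -0.26 and -0.189 (mtDNA-encoded) with all 6 libraries. With each library left out, with or without the correction, or replicate 2 of both groups left out, they lay between -0.146 and -0.022 and between -0.386 and -0.019. The counts of calls were less stable. In those fits nuclear-encoded subunits called lower numbered 0 to 28 and called higher 0 to 3, and mtDNA-encoded subunits called lower 0 to 9. The nuclear-encoded calls (9 lower, 1 higher) became 12 lower and 2 higher with DESeq2, and 9 lower and 2 higher with library sizes only. They were 14 lower and 3 higher with no filter on low counts, and 3 lower and 0 higher with the GC correction alone. At an adjusted p under 0.01 they were 0 in either direction. The mtDNA-encoded subunits called lower (0) became 2 with DESeq2, 1 with library sizes only, 7 with no filter, 1 with the GC and length correction and 1 with the GC correction alone.

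The sign of some genes turned. With the GC and length correction, the GC correction alone and the replicate block with the correction, the log2 fold changes were -0.045, -0.098 and -0.059 for MT-ND6, -0.082, -0.013 and -0.085 for NDUFS1, 0.058, 0.032 and 0.057 for NDUFS8, -0.053, -0.026 and -0.059 for ATP5F1A, and 0.056, 0.016 and 0.056 for ATP5IF1. NDUFS7 was at 0.022 with the correction, with and without the block. UQCRFS1 was at 0 with library sizes only. Leaving out 1 library turned the sign of 11 genes, which over all such fits, with and without the correction, ran from -0.338 to 0.17 for MT-ND2, -0.397 to 0.085 for MT-ND4, -0.386 to 0.027 for MT-ND4L, -0.43 to 0.119 for MT-ND5, -0.278 to 0.156 for MT-ND6, -0.044 to 0.274 for COX8A, -0.18 to 0.014 for UQCRFS1, -0.153 to 0.067 for ATP5F1A, -0.087 to 0.079 for ATP5IF1, -0.274 to 0.009 for COX7B and -0.135 to 0.054 for UQCRHL. Another 6 genes kept their sign whichever library was left out without the correction and turned only where the correction was applied, with ranges over both of -0.406 to 0.012 for ATP5F1D, -0.377 to 0.06 for NDUFS7, -0.34 to 0.113 for NDUFS8, -0.185 to 0.153 for NDUFS1, -0.19 to 0.01 for COX6A1 and -0.228 to 0.025 for ATP5MC2. The cause was not tested.

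Across all genes, same-numbered libraries did not clearly deviate together (r = 0.25, -0.05 and 0.03 for replicates 1, 2 and 3). The highest r of control replicate 2 was only 0.07, with P4HA3 overexpression replicate 1. It was 0.27 for control replicate 3 and P4HA3 overexpression replicate 2. The numbers were therefore not taken as pairs. The mtDNA genes differed, since replicate 2 had their highest median deviation in each group (0.419 and 0.185 on the log2 scale). Whether the libraries pair in these genes was not tested. The replicate block gave 17 lower and 2 higher nuclear-encoded and 7 lower mtDNA-encoded subunits, and with the GC and length correction 19 lower, 1 higher and 11 lower. Fits without a library of a group rest on 2 libraries there, and low genes are limited by counting error.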
